A study of Sus scrofa with 20 samples.

Results

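Smooth muscle cells shorten by sliding actin over myosin, and the 35 genes described here encode the proteins of that machine in the wall of the pig uterus. They were chosen by name for their roles: actins and actin-binding proteins, smooth muscle myosin and its kinase and phosphatase, the filaments and membrane anchors that carry the force, calcium stores and channels, small heat shock proteins, and the transcription factor that switches many of these genes on. All 35 were found among the 30345 gene rows of the table, and all 35 were among the 17745 genes with enough counts to be tested.

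Uterine tissue came from 20 sows, crosses of Large-White X Landrace (Danbred genetic) listed as wild type, with 1 RNA library per sow. Sows had a parity of 3.53 ± 1.12 and were slaughtered 6 days after estrus began. CONTROL is the group of 5 sows that were not inseminated; FR1, FR2 and FR3 each hold 5 sows inseminated with the sperm-rich fraction of the ejaculate alone, with the rich and intermediate fractions, or with the rich, intermediate and poor fractions. Semen came from 3 Pietrain boars (32 ± 1 months of age), and inseminated sows received 2.53 ± 0.74 inseminations each. Which boar served which sow, which sows carried embryos and which layers of the uterine wall entered each extract are not given in the sources used here, so semen itself and early pregnancy cannot be told apart. Libraries are named by group and number, such as CONTROL_1.

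In the uterus, smooth muscle forms the myometrium, with an inner circular and an outer longitudinal layer, and also the walls of the vessels. A rise in calcium lets calmodulin activate myosin light chain kinase, which phosphorylates the myosin regulatory light chain and starts cross-bridge cycling; myosin phosphatase reverses this. Uterine contractions move semen towards the oviduct and later help to space pig embryos along the horns. Myocardin, acting with serum response factor, is the best known activator of the contractile genes.

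No smooth muscle gene passed the test between inseminated and control sows, but the genes varied widely among sows, and they did so together. The mean log2 CPM (counts scaled to library size with TMM factors) of the 35 genes ranged from 5.65 in CONTROL_1 to 9.21 in CONTROL_2, so that both extremes were control libraries. Once libraries were set to the same level of 6 core contractile genes, 3 of the 29 other members were lower and 1 was higher after insemination, where 8.68% of all genes were lower and 4.81% higher, so the counts were near those of genes at large. Of these 4 calls only that of TPM2 held whichever library was left out. The plot of all members by library shows this shared pattern first.

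**Figure D1:**
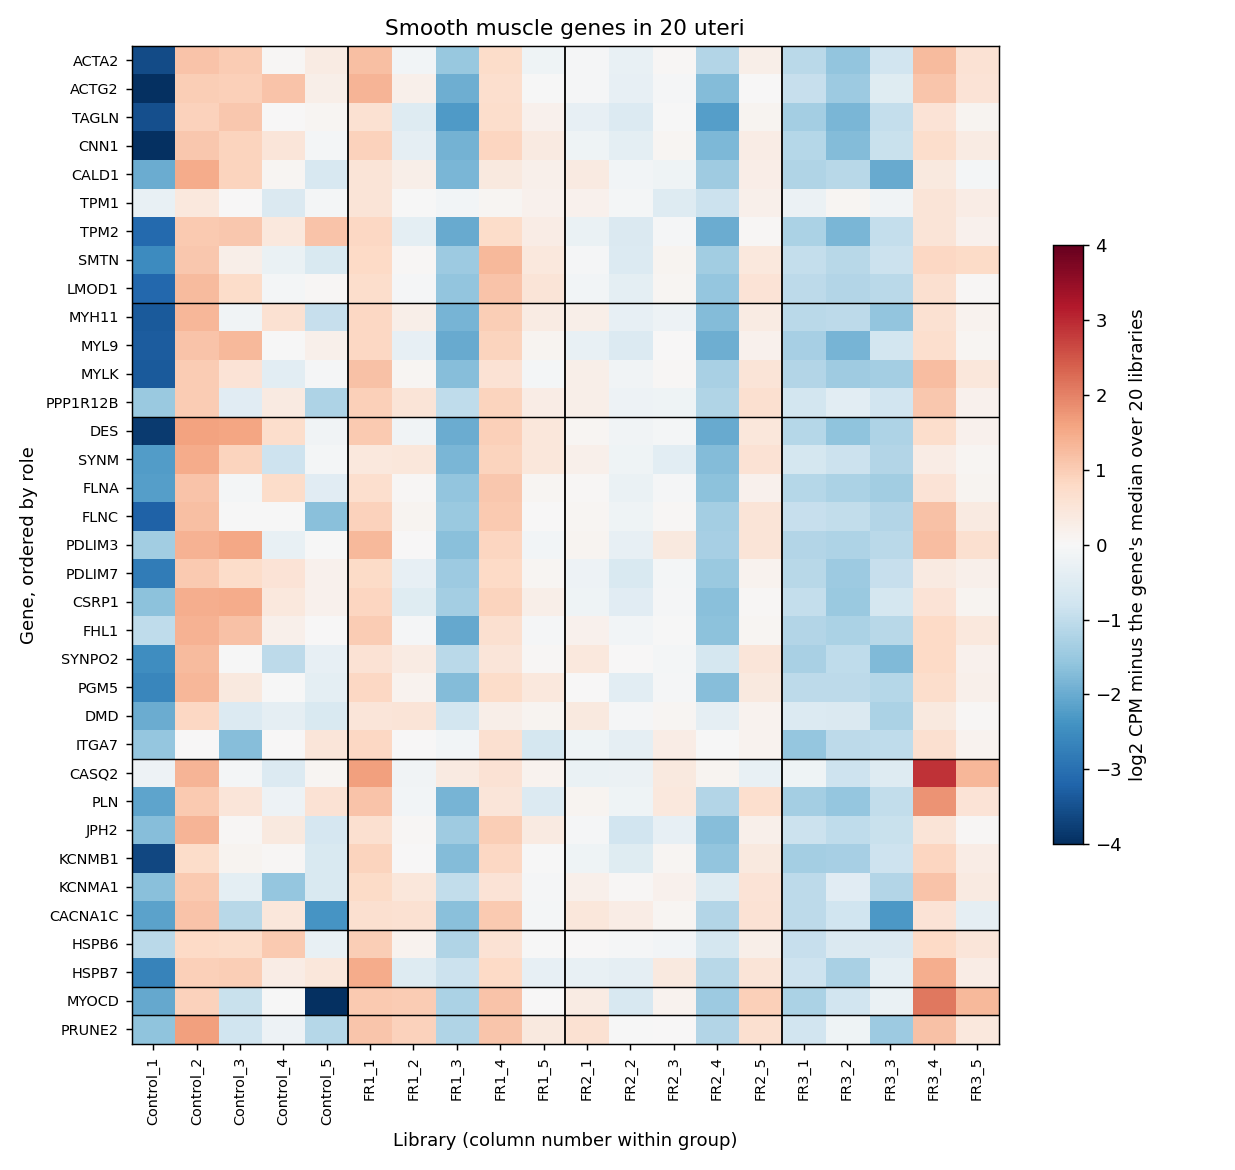
Each row is 1 of the 35 smooth muscle genes and each column 1 of the 20 libraries; colour is the gene's log2 CPM minus its median over the 20 libraries, with the scale ending at 4 in either direction. Most genes are low together in CONTROL_1, FR1_3, FR2_4 and FR3_1 to FR3_3 and high together in CONTROL_2, FR1_1, FR1_4 and FR3_4.

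The libraries held between 32981897 and 62942693 estimated counts, with 17006 to 21574 genes above 0, and all are labelled as 1 batch. No pair of the 190 possible pairs of libraries agreed within sampling noise (lowest chi-square per gene 44.9), so none was treated as a repeat. CONTROL_1 stood apart before any test. It was the lowest library for 24 of the 35 members, and the summed level of the members was 5818 CPM there against 10209 to 65255 CPM in the other 19 libraries. The fold changes and counts of calls are therefore also given without CONTROL_1. In pieces of whole tissue, fewer smooth muscle cells and less RNA per cell cannot be told apart.

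The thin filament of smooth muscle carries the alpha and gamma smooth muscle actins, ACTA2 and ACTG2. ACTA2 was at 222, 5766, 5256, 2698 and 3326 CPM in CONTROL_1 to CONTROL_5. After insemination it was at 6056, 2440, 920, 4332 and 2309 CPM in FR1, at 2551, 2116, 2730, 1167 and 3103 CPM in FR2 and at 1237, 887, 1553, 6365 and 3882 CPM in FR3. Control, FR1 and FR3 each held both high and low libraries, FR2 reached no more than 3103 CPM, and the 4 groups overlapped. The means were 3454 ± 2215 CPM (SD, n = 5) in control and 2777 ± 1725 CPM (SD, n = 15) in inseminated sows, which gave -0.33 ± 0.52 as the log2 fold change with its standard error (edgeR adjusted p = 0.742); with limma-voom it was 0.02.

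ACTG2, the actin typical of visceral muscle, was at 38.7, 3996, 3942, 4491 and 2392 CPM in CONTROL_1 to CONTROL_5. It was at 5214, 2346, 524, 3194 and 2015 CPM in FR1, at 1950, 1621, 1951, 612 and 2038 CPM in FR2 and at 1067, 737, 1459, 4386 and 2959 CPM in FR3. The groups overlapped again, and CONTROL_1 was 52.6-fold below the median of the other 19 libraries, against 12.2-fold for ACTA2. The actins are nearly identical in sequence, so reads shared between ACTA2, ACTG2 and the striated muscle actins were divided by estimation and each level is uncertain to that extent. The log2 fold change of ACTG2 was -0.50 ± 0.59 (edgeR adjusted p = 0.640), and 0.26 with limma-voom.

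TAGLN (transgelin) and CNN1 (calponin) bind and stabilise the actin filament. TAGLN was at 361, 7850, 8752, 4219 and 4352 CPM in the 5 control libraries and between 852 and 6698 CPM, with a median of 3325, in the 15 inseminated ones. CNN1 was at 76.1, 2770, 2416, 1827 and 1252 CPM in control and between 353 and 2464 CPM, with a median of 1155, after insemination. For both genes CONTROL_1 lay below every inseminated library while at least 1 other control lay above them all. Neither log2 fold change passed the test: it was -0.56 ± 0.52 for TAGLN (edgeR adjusted p = 0.532) and -0.42 ± 0.53 for CNN1 (adjusted p = 0.666), the latter 0.01 with limma-voom.

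TPM2, the beta tropomyosin that lies along the actin groove, showed one of the larger differences. It was at 242, 4291, 4383, 2802 and 4587 CPM in CONTROL_1 to CONTROL_5. In the inseminated groups it was at 3729, 1585, 512, 3431 and 2529 CPM in FR1, at 1714, 1389, 2007, 526 and 2155 CPM in FR2 and at 864, 586, 1071, 2948 and 2362 CPM in FR3. Of the controls, 3 exceeded every inseminated library and 1 was below them all. The log2 fold change was -0.86 ± 0.48 (95% interval -1.88 to 0.15, edgeR adjusted p = 0.276), and -1.16 ± 0.41 (adjusted p = 0.0683) without CONTROL_1. It was -0.70 ± 0.55 (edgeR adjusted p = 0.443) without CONTROL_5 and -0.58 (adjusted p = 0.590) with limma-voom. TPM1, the alpha tropomyosin found in many cell types, had the narrowest range of all members: it lay between 1560 and 4117 CPM, a 2.64-fold range.

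The other thin filament members were CALD1, which encodes caldesmon and blocks myosin binding until calcium rises, SMTN, which encodes the smooth muscle protein smoothelin, and LMOD1, a leiomodin that nucleates actin. CALD1 lay between 107 and 1226 CPM, SMTN between 76.5 and 1072 CPM and LMOD1 between 30.1 and 640 CPM. Of the 9 thin filament genes, none was called, 2 had a positive and 7 a negative log2 fold change, and the median was -0.42 against -0.05 over all genes tested.

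**Figure D2:**
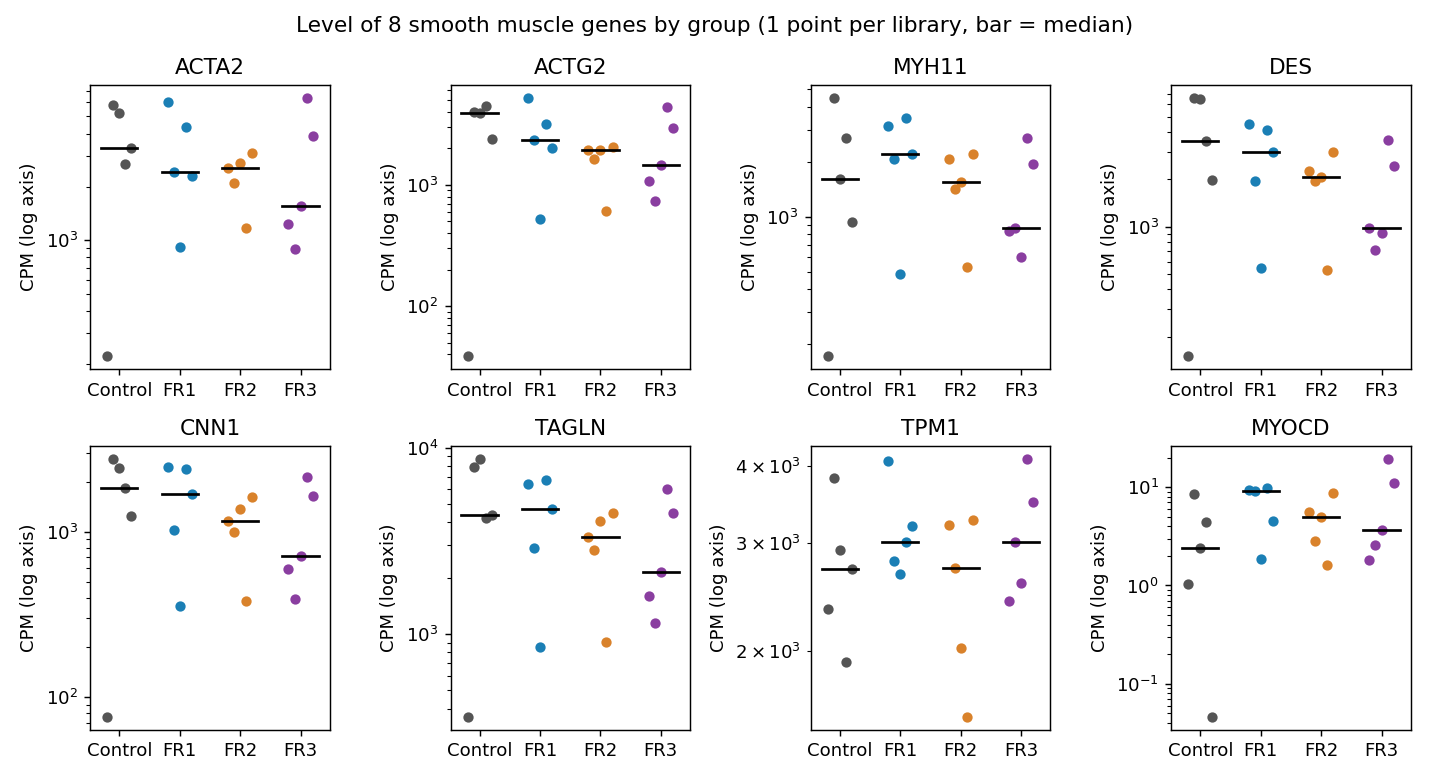
Level in CPM on a log axis for 8 members, with 1 point per library in each of the 4 groups of 5 and a bar at the group median. Control and inseminated libraries overlap in every panel, and the lowest control point for ACTA2 (222 CPM) and ACTG2 (38.7 CPM) is CONTROL_1.

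The motor itself is smooth muscle myosin. Its heavy chain MYH11 was at 172, 4499, 1620, 2717 and 935 CPM in CONTROL_1 to CONTROL_5. It was at 3147, 2075, 484, 3501 and 2223 CPM in FR1, at 2072, 1415, 1545, 530 and 2208 CPM in FR2 and at 834, 863, 600, 2722 and 1947 CPM in FR3. The control libraries spanned the whole inseminated range. The log2 fold change was -0.22 ± 0.52 (edgeR adjusted p = 0.830), 0.33 without CONTROL_2 and 0.20 with limma-voom.

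MYL9, the regulatory light chain that the kinase phosphorylates, lay between 186 and 4600 CPM. MYLK, the kinase, lay between 170 and 4150 CPM, and PPP1R12B, a targeting subunit of the myosin phosphatase, between 59.4 and 346 CPM. MYLK was level between the groups on average (log2 fold change 0.00 ± 0.53), with a standard error too large to tell a level gene from one that changed. None of the 4 myosin genes was called, with 2 positive and 2 negative log2 fold changes.

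The intermediate filament protein desmin, DES, ties dense bodies together and to the membrane. It was at 151, 6607, 6495, 3537 and 1984 CPM in CONTROL_1 to CONTROL_5. It was at 4480, 1953, 552, 4154 and 2983 CPM in FR1, at 2277, 1948, 2065, 531 and 2976 CPM in FR2 and at 980, 713, 918, 3566 and 2431 CPM in FR3. CONTROL_2 and CONTROL_3 were above every inseminated library and CONTROL_1 below them all. The log2 fold change was -0.82 ± 0.55 (95% interval -1.98 to 0.33, edgeR adjusted p = 0.370), and -1.13 without CONTROL_1.

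CSRP1, a LIM-domain protein of the actin cytoskeleton, was the member with the smallest p. Its level was 300, 2563, 2634, 1257 and 1054 CPM in CONTROL_1 to CONTROL_5, with a mean of 1562 ± 1012 CPM (SD, n = 5). It was 1701, 665, 360, 1717 and 1097 CPM in FR1, 824, 674, 900, 294 and 967 CPM in FR2 and 484, 335, 576, 1354 and 1002 CPM in FR3, with a mean of 863 ± 457 CPM (SD, n = 15). CONTROL_2 and CONTROL_3 were the highest of the 20 libraries, and CONTROL_1 was as low as the lowest inseminated ones. The log2 fold change was -0.88 ± 0.41 (95% interval -1.74 to -0.03, unadjusted p = 0.0437, edgeR adjusted p = 0.177). Without CONTROL_1 it was -1.15 ± 0.38 with an adjusted p of 0.0506, the nearest that any member came to a call. Leaving out other controls weakened it: it was -0.63 ± 0.44 (edgeR adjusted p = 0.388) without CONTROL_2 and -0.60 ± 0.46 (0.499) without CONTROL_3. With limma-voom it was -0.71 (adjusted p = 0.367).

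FHL1, another LIM-domain protein of muscle, was at 163, 871, 737, 379 and 335 CPM in control and between 80.1 and 667 CPM, with a median of 321, after insemination. Its log2 fold change was -0.65 ± 0.43 (edgeR adjusted p = 0.363). PDLIM7, a PDZ and LIM protein that binds the actin cytoskeleton, was at 66.2, 955, 765, 670 and 514 CPM in control and between 163 and 789 CPM, with a median of 402, after insemination; its log2 fold change was -0.56 ± 0.42 (adjusted p = 0.433). In each gene CONTROL_2 was the highest of the 20 libraries.

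DMD encodes dystrophin, which links actin to the membrane and the matrix. It was at 16.1, 115, 44.0, 50.5 and 42.0 CPM in control and between 26.6 and 92.2 CPM, with a median of 68.4, after insemination, a log2 fold change of 0.26 ± 0.32 (edgeR adjusted p = 0.656). The integrin subunit ITGA7, which binds laminin, lay between 10.9 and 64.6 CPM. The remaining anchors were synemin (SYNM, 40.1 to 534 CPM), the filamins FLNA (579 to 5920 CPM) and FLNC (22 to 473 CPM), PDLIM3 (74.6 to 694 CPM), the actin bundler SYNPO2 (33.3 to 446 CPM) and PGM5 (50.6 to 771 CPM), also called aciculin. Of these 12 filament and anchor genes, 4 had a positive and 8 a negative log2 fold change and none was called.

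Calcium and membrane potential set when the muscle contracts. KCNMB1 is the beta subunit of the large-conductance calcium-activated potassium channel, which damps excitability. It was at 20.2, 417, 268, 261 and 166 CPM in CONTROL_1 to CONTROL_5. It was at 464, 253, 75.6, 447 and 250 CPM in FR1, at 222, 179, 263, 84.3 and 327 CPM in FR2 and at 98.8, 101, 141, 457 and 311 CPM in FR3. Only CONTROL_1 lay outside the inseminated range, and the log2 fold change of 0.10 ± 0.50 (edgeR adjusted p = 0.929) became -0.20 without it and -0.05 without FR3_4.

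KCNMA1, the pore of the same channel, was at 21.7, 143, 52.7, 23.4 and 45.3 CPM in control and between 30.2 and 151 CPM, with a median of 77.9, after insemination. Its log2 fold change was 0.41 ± 0.42 (edgeR adjusted p = 0.584), and CONTROL_2 alone lay far above the other controls. Without CONTROL_2 the value was 1.09 ± 0.40 (adjusted p = 0.0862). CACNA1C, the pore of the L-type calcium channel, lay between 1.69 and 19.7 CPM, PLN (phospholamban, a brake on the calcium store pump) between 9.91 and 151 CPM, and JPH2, which holds the store close to the membrane, between 39.5 and 335 CPM.

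CASQ2, a calcium-binding protein of the store, was low in every library, at 31 to 612 estimated counts. It reached 9.87 CPM in FR3_4 and 4.13 CPM in FR1_1 against 3.37 CPM or less in the other 18. Its log2 fold change between FR3 and FR2, 1.32 ± 0.62, had an unadjusted p of 0.0467 and an edgeR adjusted p of 0.669. None of the 6 calcium and channel genes was called after insemination; 4 had a positive and 2 a negative log2 fold change.

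The small heat shock proteins HSPB6 and HSPB7 lay between 88.4 and 421 CPM and between 7.12 and 127 CPM. HSPB6 is phosphorylated when smooth muscle relaxes. PRUNE2, included as a gene found in smooth muscle, lay between 14.6 and 140 CPM. None of these 3 was called.

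MYOCD, the myocardin gene, had the widest range. It was at 1.05, 8.51, 2.38, 4.40 and 0.0463 CPM in CONTROL_1 to CONTROL_5. It was at 9.40, 9.10, 1.85, 9.88 and 4.56 CPM in FR1, at 5.62, 2.83, 4.98, 1.60 and 8.74 CPM in FR2 and at 1.82, 2.60, 3.70, 19.5 and 11.1 CPM in FR3. The lowest value, in CONTROL_5, rested on 2 estimated counts (95% Poisson interval 0.242 to 7.22, counting error only) and made the ratio of the highest to the lowest library 421. In that same library the members differed: ACTA2 (3326 CPM) lay within the range of the inseminated sows and TPM2 (4587 CPM) above it. FLNC (64.6 CPM), PPP1R12B (69.6 CPM) and CACNA1C (1.69 CPM) lay below every inseminated library. The log2 fold change of MYOCD was 0.96 ± 0.71 (95% interval -0.53 to 2.44, edgeR adjusted p = 0.428). It was 1.69 without CONTROL_2 (adjusted p = 0.177) and 1.89 with limma-voom (adjusted p = 0.221), and limma-voom called it higher at equal level of the core genes, where edgeR did not.

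Over the whole set, insemination against no insemination gave 0 calls among 35 members by edgeR (adjusted p below 0.05), where 11.1% of all genes tested were called, 2.87% higher and 8.2% lower. At an unadjusted p below 0.05 there was 1 member, CSRP1. The log2 fold changes ran from -0.88 (CSRP1) to 0.96 (MYOCD), with 14 positive and 21 negative and a median of -0.25 beside -0.05 for all genes. In all 35 members the control and inseminated libraries overlapped, as they did in all but 83 of the 17745 genes. The standard errors were large: the median was 0.48 on the log2 scale for the members and 0.29 for all genes, so these data do not show that the members were level. The sign of the members' median depended on single libraries: it was -0.53 without CONTROL_1, with 28 of 35 negative, and 0.16 without CONTROL_2, with 14 negative. With limma-voom it was 0.01, with 16 negative. No member was called in any of these. The log2 fold changes of the core genes without CONTROL_1 were -0.63 for ACTA2, -0.82 for ACTG2, -0.86 for TAGLN, -0.73 for CNN1, -0.52 for MYH11 and -1.13 for DES. The others described in full were then at -0.87 for FHL1, -0.85 for PDLIM7, 0.03 for DMD, 0.20 for KCNMA1 and 0.73 for MYOCD. Without CONTROL_2 the value was -0.06 for ACTA2, -0.16 for CNN1, -0.35 for TAGLN, -0.52 for DES, -0.34 for FHL1, -0.32 for PDLIM7 and 0.75 for DMD.

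**Figure D3:**
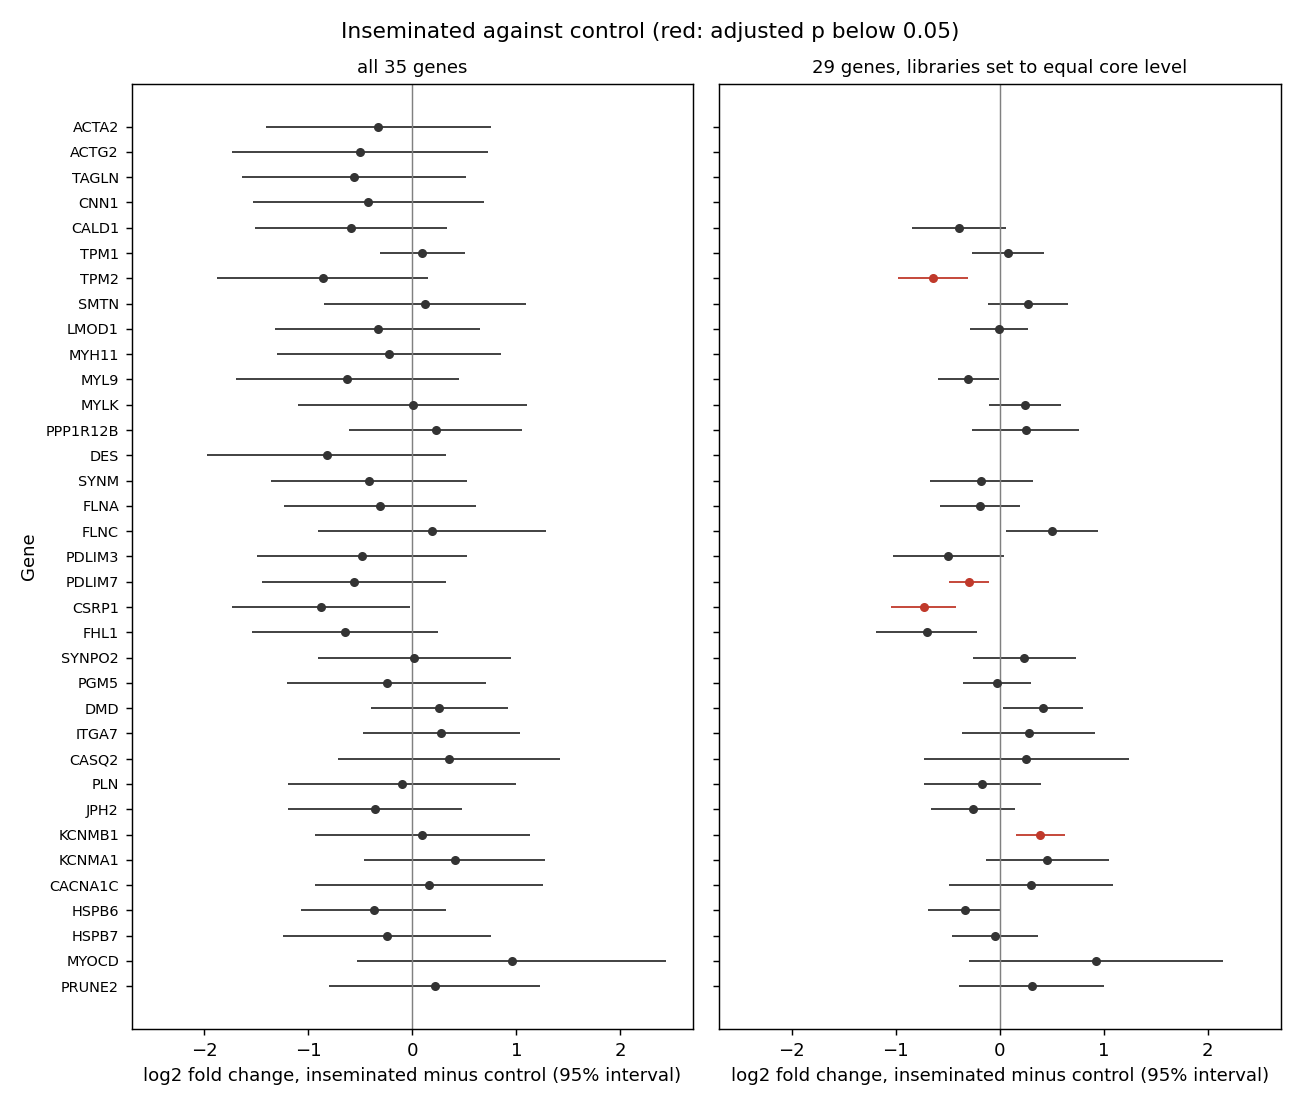
Log2 fold change of each member, inseminated (n = 15) minus control (n = 5), with its 95% interval, for all libraries and at equal level of the 6 core contractile genes (29 members). In the first fit all intervals but that of CSRP1 cross 0 and none is called; in the second they are narrower, and the called members (red) are CSRP1, TPM2 and PDLIM7 below 0 and KCNMB1 above 0.

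Each type of semen was also set against the same 5 controls. The mean log2 CPM of the 35 members was 7.83 ± 1.34 in CONTROL, 8.17 ± 0.93 in FR1, 7.85 ± 0.65 in FR2 and 7.70 ± 0.94 in FR3 (SD, n = 5 each). FR1 minus control gave 0 calls among the members beside 2.6% of all genes, FR2 minus control 0 beside 5.55%, and FR3 minus control 0 beside 4.27%; none of the 3 had a member at an unadjusted p below 0.05. The median log2 fold changes were 0.08, -0.43 and -0.43, and they share the control libraries. Single controls moved them: without CONTROL_1 they were -0.17, -0.69 and -0.65, and without CONTROL_2 they were 0.47, 0.03 and -0.02. Without FR1_1 or FR1_4 the FR1 median was -0.06 or -0.15, without FR2_4 the FR2 median was -0.24, and without FR3_1, FR3_3 or FR3_4 the FR3 median was -0.27, -0.29 or -0.88. CSRP1 had the smallest p of the members in FR2 (log2 fold change -1.09 ± 0.53, edgeR adjusted p = 0.234) and in FR3 (-1.06 ± 0.53, adjusted p = 0.257). In FR1 the smallest p was that of MYOCD (1.09 ± 0.83, adjusted p = 0.534).

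The semen groups were compared with each other to read the intermediate and poor fractions. FR2 minus FR1 gave 0 calls among the members and 0% of all genes; FR3 minus FR2 gave 0 beside 0.00564% (1 gene); FR3 minus FR1 gave 0 beside 0%. All 35 members had a lower fitted level in FR2 than in FR1, from -0.70 (ACTG2) to -0.03 (PLN) with a median of -0.47, but no member had an unadjusted p below 0.05 and the members rise and fall together over libraries, so that 35 signs are not 35 separate observations. The 95% interval for ACTA2 was -1.81 to 0.89. Without FR1_1 the median was -0.29 with 30 members negative, without FR2_4 it was -0.29 with 31 negative, and without FR1_3 it was -0.72. FR3 minus FR1 had 32 negative values with a median of -0.48, and FR3 minus FR2 was balanced, 18 positive and 17 negative with a median of 0.00. Without FR3_4, the median of FR3 minus FR2 was -0.46 and that of FR3 minus FR1 -0.95; without FR1_4 the latter was -0.32. A test of any difference among the 4 groups called 0 members beside 4.07% of all genes, with 0 at an unadjusted p below 0.05 and a lowest edgeR adjusted p of 0.431.

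The spread among sows was large beside that of other genes. The ratio of the highest to the lowest library had a median of 14.0 over the members and 3.88 over the tested genes above 0 in all libraries. Without CONTROL_1 the members' median ratio was 8.38, and among the 15 inseminated libraries alone 6.61. The lowest ratios were those of TPM1 (2.64) and HSPB6 (4.76), and the highest those of MYOCD (421), ACTG2 (135) and DES (43.8). The SD of log2 CPM was above that of the median gene for 34 of the 35 members. Of all genes tested, 27.3% had an SD at least as large as the members' median.

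The spread was also present within each group. The median SD of log2 CPM over the members was 1.46 in CONTROL, 1.04 in FR1, 0.72 in FR2 and 0.99 in FR3, beside 0.69, 0.40, 0.32 and 0.52 for all genes. Without CONTROL_1 the control value was 0.73 beside 0.65 for all genes, so the excess in control rested largely on that library. In CONTROL_1 the members were not low to the same degree. CNN1 was 18.1-fold, DES 15.1-fold, KCNMB1 12.5-fold and MYH11 11.3-fold below the median of the other 19 libraries, while FHL1 was 2.05-fold, TPM1 1.25-fold and CASQ2 1.23-fold below.

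The members moved as a block across sows. The Spearman correlation of each member with the mean of the other 34, given as a description over 20 libraries that share scaling and tissue makeup, had a median of 0.89 and was above 0.7 for 33 members. PGM5 was highest at 0.98, followed by SMTN at 0.97. ITGA7 at 0.54 and CASQ2 at 0.52 were lowest. Among the 15 inseminated libraries alone the median was 0.95, so the pattern was present without any control. Over the other 17710 genes the median was -0.05, and 76 of them (0.429%) were at or above the members' median.

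The genes outside the set that followed it most closely were picked by rank after their values were seen. TGFB1I1, a LIM protein of focal adhesions, was at 0.98, ZNF185, BEND6 and ACTN1 at 0.97, and INPP5A at 0.97. ACTN1 is an alpha-actinin that crosslinks actin.

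To ask which members differed beyond this shared variation, libraries were compared at the same mean log2 CPM of 6 core genes, ACTA2, MYH11, DES, CNN1, TAGLN and ACTG2. The core level was 7.08, 12.28, 11.99, 11.60 and 11.02 in CONTROL_1 to CONTROL_5 and between 9.18 and 12.09 in the inseminated libraries, so CONTROL_1 lay far below the range of all the others. Of the 29 members outside the core, 4 were called by edgeR: 3 lower, where 8.68% of all genes were called lower, and 1 higher, where 4.81% were called higher (13.5% in all). The members' median was -0.01 beside -0.03 for all genes, with 15 of 29 negative. CONTROL_1 set this balance: without it, 1 member was called lower and 3 higher, and the median was 0.25 beside -0.03 for all genes, with 7 of 29 negative. The shares of all genes called without CONTROL_1 are not given here, so these counts of calls cannot be read as an excess.

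**Figure D4:**
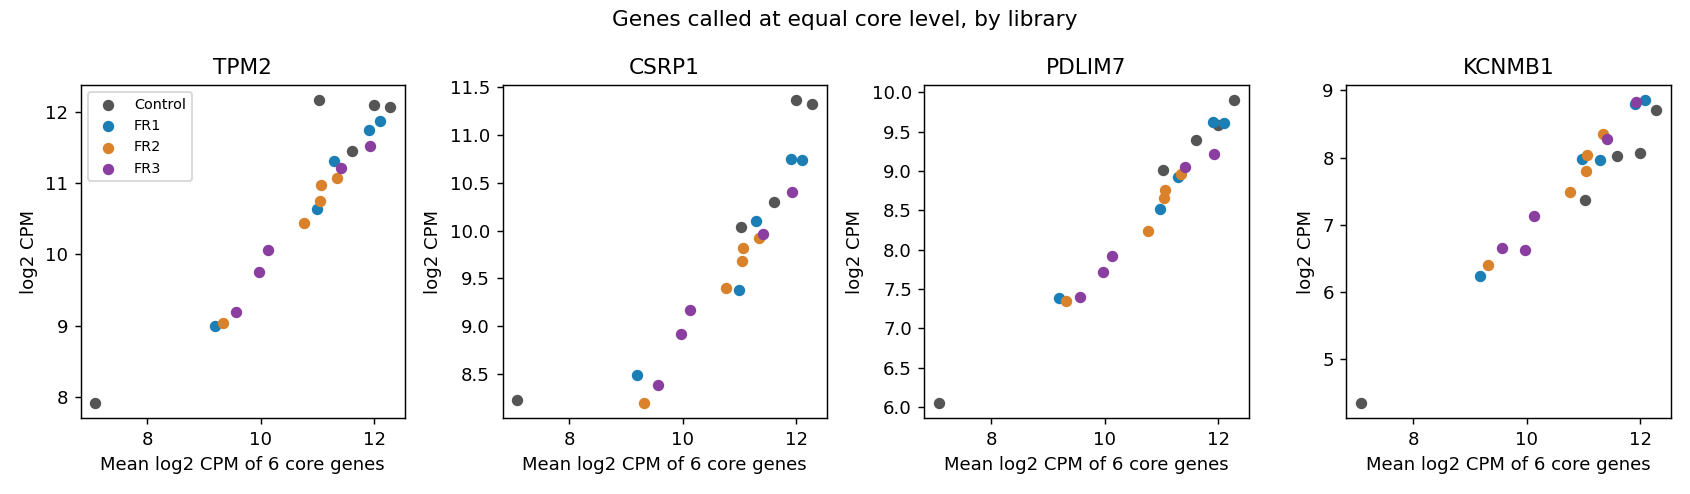
Log2 CPM of the 4 members called at equal core level against the mean log2 CPM of the 6 core genes, 1 point per library, coloured by group. At like core level CSRP1 is highest in CONTROL_2 and CONTROL_3, TPM2 in CONTROL_5, and KCNMB1 is lower in 4 controls; CONTROL_1 stands alone at a core level of 7.08.

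CSRP1 fell by 0.73 ± 0.15 on the log2 scale at equal core level (SE; edgeR adjusted p = 0.00418), and its level rose by 0.67 log2 units for each log2 unit of the core. That value leans on the lone point at 7.08: without CONTROL_1 the log2 fold change was -0.45 ± 0.15 with an adjusted p of 0.0651, no longer a call. TPM2 fell by 0.64 ± 0.16 (adjusted p = 0.0131), and it stayed called whichever single library was left out, although without CONTROL_5, the control highest for its core level, the value was -0.37 ± 0.12 (adjusted p = 0.0458). PDLIM7 fell by 0.30 ± 0.09 (adjusted p = 0.0385). Its call was lost when any of 15 libraries was left out, with an adjusted p of 0.152 without CONTROL_1.

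KCNMB1 rose by 0.39 ± 0.11 at equal core level (edgeR adjusted p = 0.0282), and by 0.52 without CONTROL_1. The call was lost without CONTROL_3 (adjusted p = 0.110) or CONTROL_4 (0.0540), and with the mean of all other members in place of the 6 core genes (log2 fold change 0.28, adjusted p = 0.141). That covariate called 6 members: TPM2 (-0.86, adjusted p = 0.0191), CSRP1 (-0.81, 0.00164), PDLIM7 (-0.43, 0.0483), FHL1 (-0.78, 0.00493) and PDLIM3 (-0.58, 0.0470) were lower and FLNC (0.50, 0.0262) was higher. The share of all genes called with that covariate was not counted, so the 6 cannot be read as an excess. Without CONTROL_1 the member called lower was TPM2 and those called higher were SMTN, FLNC and KCNMB1. FHL1 had a log2 fold change of -0.70 ± 0.23 with an adjusted p just above the threshold of 0.05. In total 8 of the 29 members had an unadjusted p below 0.05. The share of all genes at that threshold was not counted, so the 8 cannot be read as an excess.

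The members also differed in how steeply they followed the core. The slope was near 1 for MYL9 (0.93) and TPM2 (0.90), and shallow for TPM1 (0.14), ITGA7 (0.33), CASQ2 (0.34) and DMD (0.42). These slopes are descriptions of 20 libraries and depend on the makeup of each tissue piece.

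Genes around the contractile machine were read as lists grouped by role. For these lists and those of cell types, the shares over all genes tested were 2.87% called higher and 8.2% called lower after insemination. The few calls in the lists by role are near those shares. In the list of serum response factor and other muscle transcription factors, 14 of 16 were tested and none was called. FOXF1, a mesenchymal transcription factor, had the smallest p, with a log2 fold change of 0.63 ± 0.23 (edgeR adjusted p = 0.0857).

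Of 21 genes for calcium entry, stores and channels, 1 was higher and 1 lower after insemination. ATP2B4, a plasma membrane calcium pump, was at 183, 188, 74.2, 65.2 and 156 CPM in control and between 91.4 and 1007 CPM after insemination (log2 fold change 1.64 ± 0.49, edgeR adjusted p = 0.0352). KCNN3, a small-conductance calcium-activated potassium channel, was at 2.18, 5.19, 14.47, 20.8 and 0.903 CPM in control and between 0.679 and 3.57 CPM after insemination (-1.98 ± 0.48, adjusted p = 0.0113). Both calls were lost without CONTROL_3 (adjusted p 0.098 and 0.061) or CONTROL_4 (0.080 and 0.103), and that of ATP2B4 also without FR1_2 (0.050), FR2_1 (0.051) or FR2_2 (0.051). For KCNN3, 3 controls lay above every inseminated library and the other 2 within their range.

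Of 19 tested receptors and coupling genes, 1 was higher and 2 were lower, PTGS2 with the smaller p of those 2. EDNRA, the receptor through which endothelin contracts smooth muscle, was at 6.18, 22.7, 21.6, 11.3 and 40.5 CPM in control and between 17.9 and 76.5 CPM after insemination. Its log2 fold change was 1.34 ± 0.35 (edgeR adjusted p = 0.0190; 0.057 without CONTROL_3 and 0.062 without CONTROL_4). PTGS2, the inducible prostaglandin synthase, was at 19.6, 341, 414, 7.71 and 7.36 CPM in control and between 0 and 36.1 CPM after insemination (-4.26 ± 1.06, adjusted p = 0.0135). CONTROL_2 and CONTROL_3 lay above every inseminated library and the other 3 controls within their range, and the adjusted p was 0.066 without CONTROL_3.

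Of 20 adhesion and caveola genes, none was higher and 2 were lower. DAG1, dystroglycan, was at 174, 367, 1473, 152 and 105 CPM in control and between 149 and 204 CPM after insemination. The difference (log2 fold change -1.44 ± 0.37, edgeR adjusted p = 0.0160) rested on CONTROL_3: without it, the value was -0.25 with an adjusted p of 0.529. ACTN4, an alpha-actinin of non-muscle cells, was at 281, 516, 713, 345 and 174 CPM in control and between 216 and 314 CPM after insemination (-0.66 ± 0.21, adjusted p = 0.0450). Its call was also lost in 16 of the 20 fits that left out a library, with an adjusted p of 0.314 without CONTROL_3.

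Markers of other cell types moved with these comparisons. Of 12 markers of uterine epithelium, 6 were lower after insemination and none higher, with ELF3 (log2 fold change -3.15 ± 0.39, edgeR adjusted p = 0.000112), KRT18 (-1.25 ± 0.17, 0.000175) and MUC1 (-3.51 ± 0.48, 0.000188) the clearest. Of 10 stromal fibroblast markers, 2 were higher, PDGFRA (1.55 ± 0.31, 0.00345) and LUM (1.42 ± 0.30, 0.00509), and none lower. The mean log2 CPM of the epithelial list lay between 7.34 and 7.76 in control and between 5.90 and 7.26 after insemination, and that of the fibroblast list between 6.14 and 7.94 and between 7.29 and 8.96.

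These lists also varied with the smooth muscle level among inseminated sows, in opposite directions. Over the 15 inseminated libraries the Spearman correlation with the members' mean was -0.67 for the epithelial and 0.70 for the fibroblast list. For the glia and nerve list it was 0.82, for striated muscle 0.81, for endothelium 0.63 and for pericytes 0.32. It was 0.225 for red blood cells, -0.20 for leukocytes and -0.33 for mesothelium. Over all 20 libraries it was -0.28 for the epithelial, 0.53 for the fibroblast and 0.64 for the glia and nerve list. FR1_1, FR1_4 and FR3_4, where the members' mean log2 CPM was 8.99, 8.87 and 8.99, had epithelial means of 6.03, 6.08 and 5.90. FR1_3, FR2_4, FR3_1, FR3_2 and FR3_3, at 6.66, 6.77, 7.06, 6.97 and 7.07 for the members, had epithelial means of 6.91, 6.78, 7.21, 7.10 and 7.26. The order was not strict: FR3_5 and FR1_5, at 8.40 and 8.19 for the members, had epithelial means of 7.12 and 6.96. Among controls the epithelial mean hardly moved (7.34 in CONTROL_1 and 7.61 in CONTROL_2) while the members went from 5.65 to 9.21. The part of tissue makeup in the members' levels, and in the 4 calls at equal core level, was not tested.

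**Figure D5:**
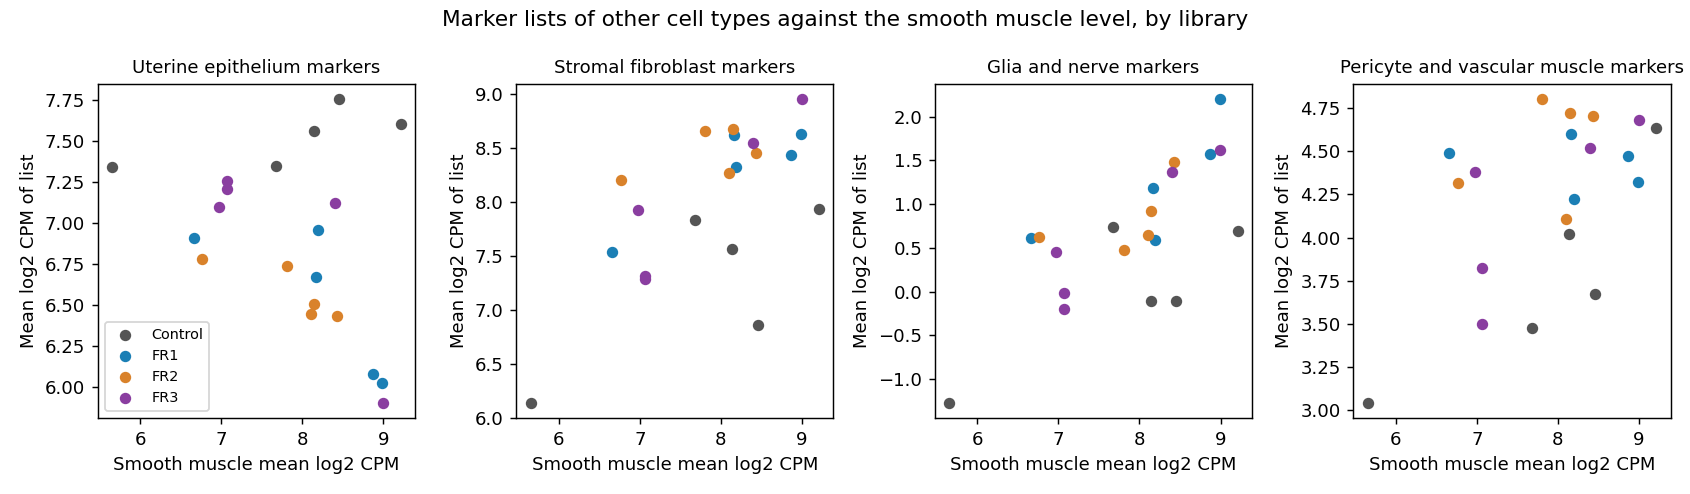
Mean log2 CPM of 4 marker lists of other cell types (vertical axes: epithelium, fibroblast, glia and nerve, pericyte) against that of the 35 smooth muscle genes (horizontal axes), 1 point per library, coloured by group. The 3 inseminated libraries with the most smooth muscle RNA (FR1_1, FR1_4 and FR3_4) have the lowest epithelial means, FR3_5 and FR1_5 do not follow, and the 5 control libraries keep an epithelial mean between 7.34 and 7.76.

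Other lists were read for cells that share contractile genes. Of 9 pericyte and vascular muscle markers none was called; KCNJ8, a potassium channel of pericytes, had the smallest p (log2 fold change 0.70 ± 0.27, edgeR adjusted p = 0.0953; 0.0359 without CONTROL_2). The mean log2 CPM of that list was 3.04 to 4.63 in control and 3.50 to 4.80 after insemination. Of 14 striated muscle markers 10 could be tested, and most defining ones were near 0: the skeletal actin ACTA1 reached at most 1.29 CPM and the skeletal myosin MYH2 at most 2.54 CPM. CKM, the muscle creatine kinase, was the exception, between 1.19 and 473 CPM and with no call. TTN was called higher (1.84 ± 0.47, adjusted p = 0.0159), and ACTC1 (-2.18 ± 0.41, 0.00214) and TNNI2 (-3.80 ± 0.77, 0.00353) were called lower, all at levels of at most 21.1 CPM. All 3 calls were lost with limma-voom, at adjusted p of 0.0570, 0.0558 and 0.128.

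The remaining lists held few calls. Of 10 endothelial markers (ERG, log2 fold change 0.59 ± 0.28, edgeR adjusted p = 0.193), 6 tested glial and nerve markers and 5 tested red cell markers (HBM, -1.09 ± 0.84, 0.444), none was called. Of 10 leukocyte markers 1 was lower, CD14 (-1.80 ± 0.47, 0.0185), through 57.8 CPM in CONTROL_3 (0.05, adjusted p = 0.936, without it). Of 5 tested mesothelial markers 2 were lower, PKHD1L1 (-2.20 ± 0.41, 0.00201) and UPK3B (-2.94 ± 0.93, 0.0472; at most 1.35 CPM, and lost in 13 of the fits that left out 1 library). The mean log2 CPM of the mesothelial list, which marks the serosal surface next to the outer muscle, was 1.59 to 2.73 in control and 0.41 to 2.47 after insemination.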

How the data were processed

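Polyadenylated RNA from the uterus of 20 sows was sequenced as paired reads. The submitters' processing notes name CASAVA, STAR 2.7.9a and Salmon 1.10.1; genome build, annotation and strand setting are not given in the sources used here. Values in the deposited table are the authors' estimated counts (87.2% of values are whole numbers). Without a known strand, reads of overlapping neighbours (SEC24D for SYNPO2, GCNT1 for PRUNE2) may be counted in a member. Of 30369 rows, 24 named no gene (0.00360% to 0.0133% of counts) and were left out. All 35 members matched symbols of RefSeq's Sscrofa11.1 gene table by name.

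Estimated counts were rounded and fitted with edgeR 4.0.16 in R 4.3.3 (TMM factors, filterByExpr, quasi-likelihood test, 4 groups in 1 fit with 16 residual degrees of freedom, Benjamini-Hochberg adjustment over all 17745 genes tested), with a call at an adjusted p under 0.05. The inseminated value is the mean of FR1, FR2 and FR3. SE is the log2 fold change divided by the root of the F statistic. Levels are TMM-scaled CPM computed from the deposited estimated counts; log2 CPM uses a prior count of 2. The fit at equal core level adds the mean log2 CPM of the 6 core genes as a covariate. Scripts were tested on simulated data. Alternatives were other scalings and filters, DESeq2 1.42.0, limma-voom 3.58.1, other thresholds and leaving out each library.

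Genes given in full were the core genes, MYOCD, every called member, the 3 smallest p in each direction and the 3 widest ranges; of each other list, up to 3 called genes by smallest p, or else the 1 with the smallest p. The members and lists were chosen with earlier results of these data known. Each library is 1 sow. The p-values set group differences against the spread between these libraries. That spread holds differences between sows, between tissue pieces and technical noise together. Results for some genes and for 1 list are not reported here. No promoter or other sequence was used here, so a planned description of promoter motifs was not made.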

Additional observations from a re-analysis of the deposited data

Results flagged for a closer look

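Within each group of 5 libraries, the highest and the lowest value of each member's CPM, and of the mean log2 CPM of the members, were compared with the nearest other library by Dixon's criterion (gap over range above 0.71). Of 144 such groups of values, 7 stood out. Chance alone gives about 1 in 20, and the members vary together, so these 7 groups are not an excess. CASQ2 accounted for 3 of them: CONTROL_2 was at 3.37 CPM with the next control at 1.39, FR1_1 at 4.13 CPM with the next FR1 library at 1.95, and FR3_4 at 9.87 CPM with the next FR3 library at 3.30. All 3 libraries had a high level of the smooth muscle genes as a whole. CONTROL_2 also stood high for KCNMA1, at 143 CPM against 52.7 in the next control, and for PRUNE2, at 140 CPM against 39.3. Low values were those of CALD1 in FR1_3, at 121 CPM with the next FR1 library at 498, and of FHL1 in FR2_4, at 105 CPM with the next FR2 library at 303. CONTROL_1 was not flagged for any member or for the members' mean. No explanation was tested for the flagged values.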

How the results depend on the processing

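No paired analysis was possible because the labels number the sows 1 to 20 and the groups share no replicate number. The count of members called stayed at 0 in all 8 comparisons under all 238 alternatives run, with a lowest adjusted p of 0.0506. At equal core level the 4 calls became 2 without a filter on low counts, 0 in limma-voom with a spread per group and 1 at an adjusted p below 0.01. They became 2 (without CONTROL_3) to 5 when single libraries were left out. DESeq2 gave 5, limma-voom 6 and the mean of all other members as covariate 6. The shares of all genes called are not given for these alternatives at equal core level, so the counts cannot be read as an excess. Over all genes, in the fit without the covariate, the 1965 calls after insemination became 2887 with DESeq2, 1308 with limma-voom, 258 with a spread per group, 770 at 0.01, 2980 at 0.1 and 988 without CONTROL_3. Signs turned with limma-voom and with its spread per group for ACTA2 (0.0189 and 0.0194), ACTG2 (0.257 and 0.258), CNN1 (0.0148 and 0.0154), MYH11 (0.203 and 0.204) and HBM (0.712 and 0.709). Leaving out single libraries gave -0.20 to 0.44 for KCNMB1, -0.52 to 0.33 for MYH11, -2.06 to 0.0524 for CD14 and -1.47 to 0.84 for HBM. The cause was not tested. Of 378 alternative values of the named members without the covariate, 367 kept their sign and their side of the threshold. For the named genes of other lists 554 of 647 did. With limma-voom the calls of KCNN3 (adjusted p = 0.151), PTGS2 (0.083), DAG1 (0.237), ACTN4 (0.150) and CD14 (0.389) were lost, and those of ATP2B4 and EDNRA stayed. Depth limits MYOCD, with 2 estimated counts in CONTROL_5 and CASQ2, with as few as 31.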

Other observations

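Some ratios between members set CONTROL_1 apart. The log2 ratio of ACTG2 to ACTA2 was -2.52 in CONTROL_1 and between -0.93 and 0.74 in the other 19 libraries. The log2 ratio of TPM1 to ACTA2 was 3.40 in CONTROL_1 and between -0.85 and 1.76 elsewhere, and that of CALD1 to ACTA2 was -1.03 there and between -3.85 and -2.13 elsewhere. The ratio of MYH11 to ACTA2 in CONTROL_1, -0.37, lay within the range of the others, -1.83 to 0.01. These ratios compare 1 gene pair across libraries and say nothing of which gene of a pair is the more abundant.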
